A study of Mus musculus with 4 samples.

Results

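T cells and natural killer (NK) cells were examined among cells of the mouse Achilles tendon, the cord that joins the calf muscles to the heel, whose RNA was captured in droplets and sequenced cell by cell. The 4 libraries were adult injury and adult control, from mice aged 6 to 8 weeks, and neonate injury and neonate control, from mice at postnatal day 3. Each group was 1 library, so differences rest on single libraries, no test between groups was made, and intervals (95%) cover counting error only. The labels name neither the strain, the number of mice, the kind of injury nor the time from injury to harvest, and they do not say whether the stated age is that at injury or at harvest. T and NK cells were chosen by their own transcripts: barcodes that passed quality limits needed at least 3 UMIs (unique molecular identifiers, each 1 captured RNA molecule) from at least 2 of 7 genes (Cd3e, Cd3d, Cd3g, Trac, Trbc2, Nkg7 and Klrb1c). They also needed at least 1 UMI of Ptprc (the leukocyte surface protein CD45), fewer than 3 UMIs of the macrophage genes C1qa, C1qb and C1qc together, and none of Flt3 or Cd79a, genes of dendritic and B cells. The rule chose 179 of 36052 quality-passing barcodes, 64 in the adult injury library, 38 in the adult control, 62 in the neonate injury and 15 in the neonate control.

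As background, alpha-beta T cells recognise peptides through a receptor whose constant chains are encoded by Trac and Trbc1 or Trbc2, gamma-delta T cells through one that uses Trdc and the Trgc genes, and both signal through the CD3 chains and Cd247. NK cells lack this receptor and kill with granules holding perforin (Prf1) and granzymes under the control of Klr-family and Ncr1 receptors. In connective tissues, lymphocytes are few, and include regulatory T cells marked by Foxp3, interleukin-17-producing gamma-delta T cells and type 2 innate lymphoid cells.

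The proximal promoters of the 3 CD3 genes are shown because these genes helped to choose the cells. Of 113 T and NK cells with Cd3g, 78 also had Cd3e, and of 76 with Cd3d, 62 also had Cd3g, counts that the rule partly fixes because it asks for at least 2 of the 7 genes in a cell. The sequences are from RefSeq on GRCm38.p6, are windows of 300 bases around the transcription start, and lie on chromosome 9: Cd3g on the minus strand at chr9:44980382-44980681, Cd3d on the plus strand at chr9:44981536-44981835 and Cd3e on the minus strand at chr9:45009562-45009861. The windows of Cd3g and Cd3d are 854 bases apart. Capitals mark ACTTCC or its reverse complement GGAAGT, a motif that holds the core of ETS-family binding sites. It was chosen after these sequences had been read, was searched on both strands and occurs in 23.7% of 32544 promoter windows. It has 1 match in Cd3e, 1 in Cd3d and 0 in Cd3g.
Cd3g: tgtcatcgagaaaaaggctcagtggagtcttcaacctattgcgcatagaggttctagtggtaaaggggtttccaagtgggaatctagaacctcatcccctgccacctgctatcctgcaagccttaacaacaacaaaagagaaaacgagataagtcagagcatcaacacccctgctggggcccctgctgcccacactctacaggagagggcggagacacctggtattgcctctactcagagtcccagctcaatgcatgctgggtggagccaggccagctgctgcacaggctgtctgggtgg
Cd3d: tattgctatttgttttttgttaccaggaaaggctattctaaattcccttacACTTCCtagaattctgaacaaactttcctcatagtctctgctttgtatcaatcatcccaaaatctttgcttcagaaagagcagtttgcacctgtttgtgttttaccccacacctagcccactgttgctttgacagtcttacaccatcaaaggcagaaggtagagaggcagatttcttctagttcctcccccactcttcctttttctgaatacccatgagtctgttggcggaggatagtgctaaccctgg
Cd3e: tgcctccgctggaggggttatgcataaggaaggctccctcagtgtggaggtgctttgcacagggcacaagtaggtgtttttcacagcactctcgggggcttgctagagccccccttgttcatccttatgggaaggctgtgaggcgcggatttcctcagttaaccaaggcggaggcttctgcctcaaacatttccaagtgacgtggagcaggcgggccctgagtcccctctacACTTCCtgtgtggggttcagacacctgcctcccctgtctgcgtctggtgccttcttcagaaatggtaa

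The libraries held 71623116, 68644322, 100169054 and 128626912 UMIs in the order adult injury, adult control, neonate injury and neonate control, and 4625, 6113, 14885 and 10429 barcodes passed quality limits. The median depth of T and NK cells was 6509 UMIs in the adult injury library, 6203.5 in the adult control, 3107 in the neonate injury and 8848 in the neonate control. Deposited barcode sequences shared by a pair of libraries numbered 3 to 49, and no T or NK cell's barcode was chosen in more than 1 library. Among T and NK cells, Xist without Y-linked transcripts was seen in 62 of 64 cells of the adult injury library, 31 of 38 of the adult control, 35 of 62 of the neonate injury and 0 of 15 of the neonate control. Y-linked transcripts without Xist were seen in 0, 0, 12 and 13 cells in the same order. Sex and injury therefore cannot be told apart between the neonatal libraries. Sex and age likewise cannot be told apart between the control libraries, and the injured libraries also differed in Y-linked transcripts.

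The marker genes were in keeping with the name T and NK cells. Averaged over the libraries with equal weight, Cd3g was at 370 CPM (UMIs of the gene per 1000000 UMIs of the summed cells) in T and NK cells and 0.402 CPM in other Ptprc-positive barcodes, Trac at 139 and 0.928 CPM, and Klrb1c, the NK1.1 receptor, at 139 and 0.718 CPM. These genes chose the cells, so their level is a description. Of the 20 genes with the highest ratio over other Ptprc-positive barcodes, 13 were not in the rule, and each of the 20 was higher in T and NK cells in 4 of 4 libraries. The 20 were ranked by this ratio in the same data, so their direction is also a description. Among them were Gzma (granzyme A) at 1003 against 4.21 CPM, Themis (a thymocyte selection protein) at 171 against 0.652 CPM, Il23r (the interleukin-23 receptor) at 172 against 0.781 CPM, Il2rb (the receptor chain shared by interleukins 2 and 15) at 634 against 7.72 CPM, and Tcf7 (a transcription factor of T cells) at 173 against 2.20 CPM. Barcodes with no Ptprc and at least 10 UMIs of Col1a1, Col1a2 and Dcn, called fibroblast-type here, served as a background for genes that such cells should lack. Genes that they express themselves cannot be told apart from free RNA in them. Cd3e was found in at most 0.174% of them and Trdc in at most 3.43%, both in the adult injury library, where their median depth was 17534.5 UMIs.

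Some of the chosen cells also held many transcripts of other cell types. The limits used for this were set after seeing the data. At least 50 UMIs of another type's marker list were present in 4, 1, 6 and 4 T and NK cells in the order adult injury, adult control, neonate injury and neonate control. At least 100 UMIs of another type's marker list were present in 1 T or NK cell of the adult injury library, 0 of the adult control, 6 of the neonate injury and 4 of the neonate control, and doublet scoring marked 6 of these 11. In the neonate control, 1 cell had 981 UMIs of mast cell markers, 1 had 584 of neutrophil markers, and 2 had 180 and 489 of fibroblast markers. In the neonate injury library, 1 cell had 4628 UMIs of erythroid markers. The summed fibroblast and tenocyte markers stood at 6997 CPM in T and NK cells of the adult injury library, 1083 CPM of the adult control, 15542 CPM of the neonate injury and 5321 CPM of the neonate control, against 39092 to 82687 CPM in fibroblast-type barcodes. Fewer than 10 UMIs of Col1a1, Col1a2, Col3a1 and Dcn together were found in 27 of 64, 34 of 38, 54 of 62 and 12 of 15 T and NK cells in the same order. The summed macrophage markers stood at 127, 23.8, 65.1 and 274 CPM in T and NK cells in the same order, with 8, 3, 7 and 3 of 10 markers detected. They were found in 31, 6, 9 and 3 cells, of which 1, in the neonate control, had at least 10 UMIs. Fcgr1 was at 0 in all 4 libraries. The part of these transcripts in the results was not tested.

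T and NK cells were a small share of every library. They made up 1.38% [1.07, 1.76] of quality-passing barcodes in the adult injury library and 0.622% [0.440, 0.852] in the adult control, a ratio of 2.23 [1.49, 3.32]. They made up 0.417% [0.319, 0.534] in the neonate injury library and 0.144% [0.081, 0.237] in the neonate control, a ratio of 2.90 [1.65, 5.09]. The adult injury share was 3.32 [2.35, 4.70] times the neonate injury share, and the adult control share 4.32 [2.38, 7.85] times the neonate control share. The adult direction depended on how cells were counted. With each barcode thinned to 1000 UMIs the share was 0.195% in the adult injury library and 0.344% in the adult control, a ratio of 0.566, and without cells of at least 10 collagen-list UMIs the ratio was 1.05. The neonatal shares after thinning were 0.101% with injury and 0.00959% in the control, the last of 10429 barcodes. The thinned shares carry no interval, and that of the neonate control rests on very few barcodes. Cells just inside the limit, with exactly 3 marker UMIs, numbered 3, 2, 8 and 1 in the order adult injury, adult control, neonate injury and neonate control. Barcodes just outside, with 2 marker UMIs, numbered 5, 1, 9 and 1, and the median cell chosen had 8.5, 19.5, 6.5 and 16 marker UMIs.

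As a share of Ptprc-positive barcodes, T and NK cells were at 3.39% [2.62, 4.31] in the adult injury library and 11.01% [7.91, 14.8] in the adult control, a ratio of 0.308 [0.210, 0.453]. They were at 4.29% [3.31, 5.47] in the neonate injury library and 2.11% [1.18, 3.45] in the neonate control, a ratio of 2.04 [1.17, 3.56]. Among Ptprc-positive barcodes, the injured library thus had the lower share in adults and the higher share in neonates. Not all of these barcodes need be leukocytes. Those not chosen held fibroblast and tenocyte markers at 25574 CPM in adult injury, 7699 in adult control, 13525 in neonate injury and 8524 in neonate control. This share was not thinned to equal depth. The number of Ptprc-positive barcodes was 1886, 345, 1444 and 712 in the order adult injury, adult control, neonate injury and neonate control.

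**Figure D1:**
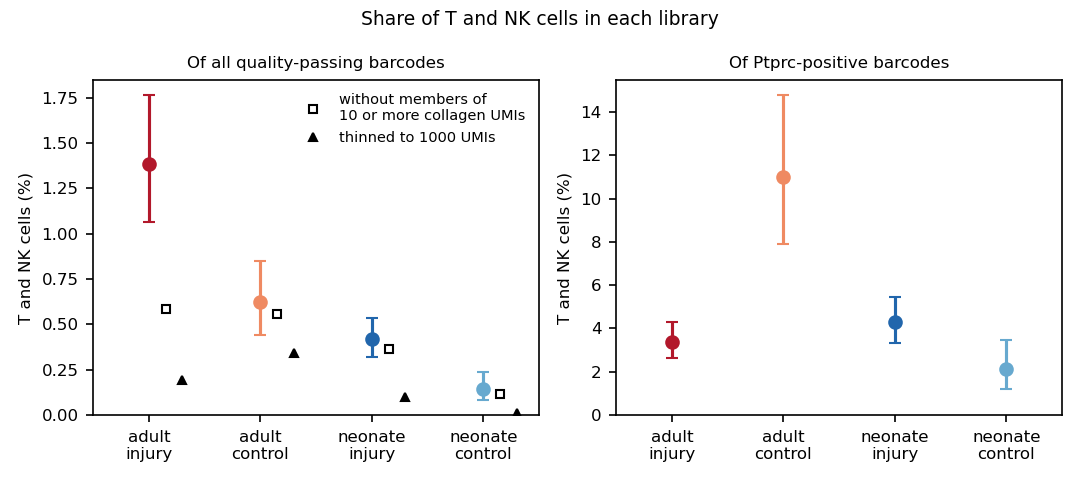
Share of T and NK cells (y axis, %) in each library, of all quality-passing barcodes (left) and of Ptprc-positive barcodes (right); points with bars are the share and its exact 95% binomial interval, and in the left panel open squares are the share without cells of 10 or more collagen-list UMIs and triangles the share after thinning to 1000 UMIs. In adults the point lies higher with injury on the left (1.38% against 0.622%) and lower on the right (3.39% against 11.01%), and the triangles lie in the reverse order on the left.

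Cells were then sorted by the receptor genes they showed. Alpha-beta type cells had CD3 and Trac UMIs and no Trdc, gamma-delta type cells had CD3 and Trdc or Trgc UMIs and no Trac, and NK type cells had no CD3 or Trac UMI and at least 1 of Klrb1c, Ncr1, Klre1 or Klrd1. Over all libraries there were 49 alpha-beta, 37 gamma-delta, 35 NK type, 46 with CD3 but an undetermined receptor and 12 others. These are ranges of counts, not cell types, and they rest partly on genes of the rule. The genes below took no part in the sorting except where named.

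The classes carried different sets of genes. Foxp3, the regulatory T cell factor, was found in 9 of 49 alpha-beta cells, in 4 of 46 undetermined cells and in 0 gamma-delta or NK type cells, and each of the 13 Foxp3 cells also had Il2ra, Ctla4 and Ikzf2. Cd4 was found in 14 alpha-beta and 7 undetermined cells and Cd8b1 in 15 and 3, with neither in any gamma-delta or NK type cell. Themis was found in 63.3% of alpha-beta, 8.11% of gamma-delta and 0 NK type cells. Scart1, a scavenger receptor of interleukin-17-producing gamma-delta T cells, was in 62.2% of gamma-delta, 2.04% of alpha-beta and 0 NK type cells. Il17a was in 6 gamma-delta cells and in no other cell, and Blk, a kinase of that lineage, in 20 gamma-delta and 4 alpha-beta cells. Il23r was in 20 gamma-delta, 16 alpha-beta and 0 NK type cells, and Pdcd1, the inhibitory receptor PD-1, in 17, 9 and 0.

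NK type cells held another programme. Ncr1 and Klrb1c helped to define them. Outside the sorting genes, Tyrobp, the adaptor of activating receptors, was in 32 of 35 NK type and 2 of 49 alpha-beta cells, Ccl5 (a chemokine of cytotoxic cells) in 30 and 11, Gzma in 21 and 3, and Eomes (a transcription factor of NK cells) in 14 and 5. Cxcr6, a chemokine receptor of tissue-resident lymphocytes, ran the other way, in 3 NK type cells against 24 of 37 gamma-delta and 18 of 49 alpha-beta cells.

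**Figure D2:**
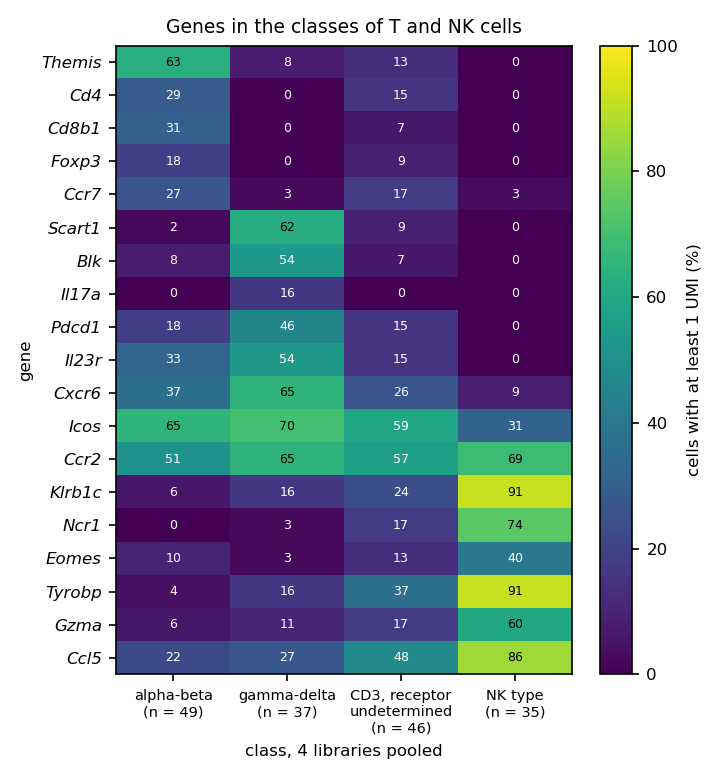
Percentage of cells with at least 1 UMI (colour and printed number) for the genes listed (rows) in 4 classes of T and NK cells pooled over the libraries (columns, n under each). Themis and Cd8b1 are most frequent in the alpha-beta column, Scart1 (62.2%) and Blk in the gamma-delta column, and Tyrobp and Ccl5 in the NK type column.

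By library, alpha-beta cells were 22 of 64 in the adult injury library, 16 of 38 in the adult control, 10 of 62 in the neonate injury and 1 of 15 in the neonate control. Gamma-delta cells numbered 15, 3, 15 and 4 in that order, which is 23.4% [13.8, 35.7] of T and NK cells in the adult injury library against 7.89% [1.66, 21.4] in the adult control. NK type cells numbered 18, 12, 5 and 0, at 28.1% [17.6, 40.8] in the adult injury library and 31.6% [17.5, 48.7] in the adult control. The 0 of 15 in the neonate control has an upper limit of 21.8%. The intervals of the injured and control libraries overlapped for all 3 classes at both ages. An undetermined receptor was seen in 7 of 64 and 4 of 38 cells in adult injury and control, and in 28 of 62 and 7 of 15 in neonate injury and control. After thinning to 1000 UMIs these shares were 20.3% and 21.1% in adult injury and control, and 35.5% and 26.7% in neonate injury and control. After thinning to 1000 UMIs, alpha-beta cells were 10.9% of T and NK cells with adult injury, 10.5% in adult controls and 8.06% with neonate injury, and NK type cells were 22.6% in the neonate injury library, against 8.06% at its own depth. The NK type asks for no CD3 or Trac UMI, so cells that lose these UMIs in thinning can enter it. The 22.6% can therefore not be read as the share of NK cells at equal depth.

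**Figure D3:**
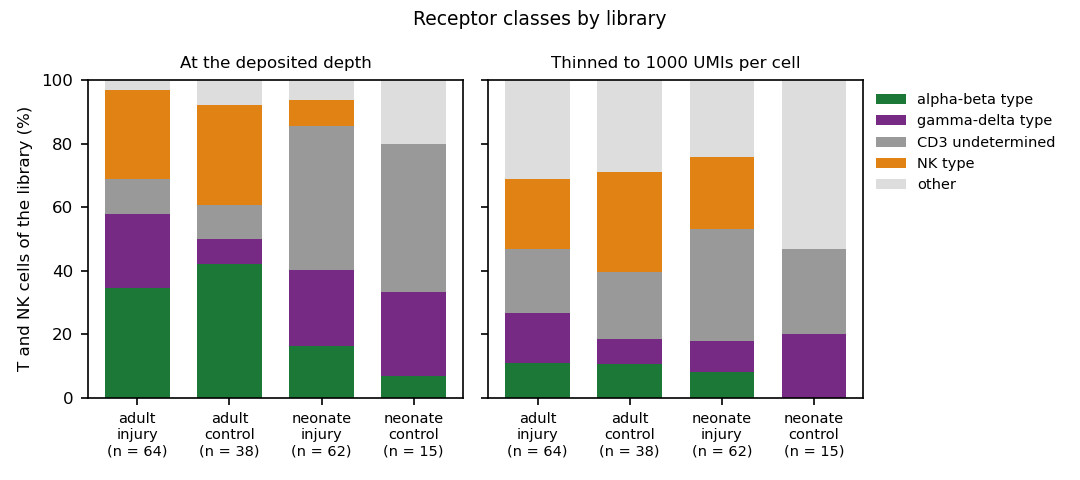
Make-up of T and NK cells in each library (y axis, % of the library's T and NK cells; n under each bar) by receptor class, at the deposited depth (left) and after thinning each cell to 1000 UMIs (right). Gamma-delta type cells are 23.4% of the adult injury bar and 7.89% of the adult control bar at the deposited depth, and the other class is larger in every bar after thinning.

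UMIs of variable-region genes were few. Among T and NK cells Trdv4 was found in 14, Trgv4 in 7, Trgv2 and Trgv6 in 5 each and Trgv1 in 3. Trdv4 was also found in 22 fibroblast-type barcodes.

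Genes were then compared between adult injury and adult control in the summed T and NK cells (457605 and 294494 UMIs). Each ratio was taken on the log2 scale after adding 0.5 counts to each library, for genes with at least 20 UMIs over both libraries, and a gene is counted as higher or lower past 2-fold. Of 6097 genes, 861 were higher (14.1%) and 453 lower (7.43%), together 21.6%, and the median over all genes was 0.13. The counts were 749 higher and 565 lower, with a median of 0.04, when mitochondrial and ribosomal genes were left out of the scale. In adult injury, T and NK cells showed more transcripts of regulatory T cell genes, of gamma-delta T cell genes and of division, and fewer of NK cell genes, of chemokines and of genes of recirculating cells. In bulk sums of this kind, a change in the number of cells of a class and a change in RNA per cell cannot be told apart unless the classes are taken singly. The lists below were chosen with earlier results of these data known. Some lists share genes, so their counts are not independent. Ccl5 is in the NK and chemokine lists, and Gzma in the NK and cytotoxic granule lists.

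Genes of regulatory T cells were higher in 8 of 11 measured genes and lower in 0, with a median of 1.81. Foxp3 had 32 UMIs in 8 cells in the adult injury library, 2 UMIs in 2 cells in the adult control, 4 UMIs in 3 cells in the neonate injury and 0 in the neonate control, a log2 ratio of 3.06 [1.39, 6.47] in adults. After thinning, Foxp3 was in 3, 1, 0 and 0 cells. Icos, a costimulatory receptor, was at 872 [788, 962] CPM in the adult injury library, 143 [103, 193] in the adult control, 311 [249, 384] in the neonate injury and 220 [152, 309] in the neonate control. It was in 49 of 64 adult injury cells against 14 of 38 adult control cells, and in 26 against 4 after thinning. Ikzf2 (the factor Helios) was at 1302, 156, 871 and 721 CPM in the same order of libraries, with the adult control alone low. Tnfrsf9 (the costimulatory receptor 4-1BB) was at 577 CPM in the adult injury library and 105 CPM in the adult control, with 170 and 160 CPM in the neonate injury and control. Ctla4, an inhibitory receptor, was at 208 and 57.7 CPM in adult injury and control, a log2 ratio of 1.81 [1.09, 2.68]. Icos was also in 26 of 37 gamma-delta cells and Ikzf2 in 28. In fibroblast-type barcodes Ikzf2 was found in 14.5% in the adult injury library and 9.76% in the adult control.

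Genes of gamma-delta and other innate-like T cells were higher in 4 of 10 and lower in 0, with a median of 0.84. Scart1 was at 345 [294, 404] CPM in the adult injury library (14 cells), 57.7 [33.6, 92.4] in the adult control (1 cell), 286 [226, 356] in the neonate injury (12 cells) and 100.1 [56.0, 165] in the neonate control (2 cells). Both injured libraries stood above their controls, with log2 ratios of 2.54 [1.86, 3.40] in adults and 1.47 [0.70, 2.42] in neonates. Trdc, the receptor delta chain, was at 267 CPM in 18 cells of the adult injury library, 95.1 CPM in 4 cells of the adult control, 101 CPM in 15 cells of the neonate injury and 140 CPM in 4 cells of the neonate control. Il17a was at 14 UMIs in 4 cells, 0, 6 UMIs in 1 cell and 9 UMIs in 1 cell, so no comparison of its level was possible at this depth. Zbtb16 (the factor PLZF of innate-like T cells) was at 514 CPM in the adult injury library and 119 CPM in the adult control, a log2 ratio of 2.09. Fibroblast-type barcodes also held Zbtb16, in 18.7% of them in the adult injury library and 87.4% in the adult control.

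NK cell receptors and factors were higher in 0 of 19 and lower in 9, with a median of -0.80, and cytotoxic granule genes were higher in 0 of 9 and lower in 3. Klrb1c and Nkg7, both among the lower genes, are genes of the rule, so their levels depend partly on how the cells were chosen. Gzma was at 212 [172, 259] CPM in the adult injury library, 2771 [2584, 2968] in the adult control, 347 [281, 424] in the neonate injury and 681 [555, 827] in the neonate control, where 97 of its 102 UMIs came from 1 cell. Ccl5 was at 680, 5066, 759 and 207 CPM in the same order. The adult control alone stood high for both genes, with adult log2 ratios of -3.70 [-4.03, -3.40] for Gzma and -2.90 [-3.08, -2.72] for Ccl5. Ncr1, the activating receptor NKp46, was at 26 UMIs in 13 cells, 54 UMIs in 14 cells, 16 UMIs in 11 cells and 0 UMIs in the 4 libraries. Prf1 (perforin) was at 67.7 and 316 CPM in adult injury and control, a log2 ratio of -2.21 [-2.86, -1.62], and Tyrobp at 164 and 543 CPM, a log2 ratio of -1.72.

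The same order was seen inside the NK type class. Gzma was in 9 of 18 NK type cells with 92 UMIs (696 CPM) in the adult injury library, against 12 of 12 with 655 UMIs (8155 CPM) in the adult control. Ccl5 was at 1437 CPM against 12750 CPM in these cells, and Prf1 at 174 against 909 CPM. Klra8, an inhibitory Ly49-family receptor whose near-identical relatives can share reads, ran the other way, at 537 CPM in 7 cells of the adult injury library against 299 CPM in 4 cells of the adult control. The median depth of NK type cells was 6741 UMIs in the adult injury library and 5835.5 in the adult control.

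Chemokines made by lymphocytes were lower in 3 of 4, with a median of -2.45. Ccl4 had 8 UMIs in 7 cells in the adult injury library, 706 UMIs in 14 cells in the adult control (317 of them in 1 cell), 16 UMIs in 6 cells in the neonate injury and 1 UMI in the neonate control. Its adult log2 ratio was -7.01 [-8.32, -6.11]. Macrophage-type barcodes, with Ptprc and at least 3 C1q UMIs, also held Ccl4, in 50.8% of them in the adult injury library and 24.6% in the adult control. Csf2, the myeloid growth factor GM-CSF, had 0 UMIs in the adult injury library and 37 UMIs in 6 cells in the adult control, at least 19.2-fold lower with a floor of 3 counts per library.

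Genes of naive and recirculating lymphocytes were higher in 0 of 11 and lower in 5, with a median of -0.94. Klf2, a factor that keeps T cells quiescent and circulating, was at 125 [94.3, 161] CPM in the adult injury library, 666 [576, 766] in the adult control, 322 [258, 396] in the neonate injury and 881 [737, 1045] in the neonate control. Both injured libraries stood below their controls, with log2 ratios of -2.41 and -1.45. Ccr7, the lymph node homing receptor, had 14 UMIs in 6 cells, 40 UMIs in 10 cells, 13 UMIs in 7 cells and 0 UMIs. Lef1, a T cell factor, was at 153 and 587 CPM in adult injury and control, and S1pr1, the receptor for leaving tissue, at 45.9 and 200 CPM. Klf2 was also in 72.8% of fibroblast-type barcodes of the adult injury library and 80.2% of the adult control. Immediate early genes, which follow cell stimulation and tissue digestion, were lower in 5 of 12 and higher in 0, with Fos at 295 CPM in adult injury and 937 CPM in adult control.

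Genes of tissue residence and activation were higher in 4 of 11 and lower in 0. The 4 higher genes were Cxcr6, Cd44, Nr4a3 and Crem. Ccr2 and Pdcd1, given beside them, are of the chemokine receptor and checkpoint lists. Ccr2, a receptor for entry into inflamed tissue, was at 542 [477, 614] CPM in the adult injury library, 119 [82.8, 165] in the adult control, 253 [197, 320] in the neonate injury and 26.7 [7.28, 68.4] in the neonate control. It was higher in the injured library at both ages, with log2 ratios of 2.17 and 3.08. Ccr2 was in 17 of 18 NK type cells and 14 of 15 gamma-delta cells of the adult injury library, against 4 of 12 and 3 of 3 in the adult control. Macrophage-type barcodes held Ccr2 in 53.2% and 17.7% in the adult injury and control libraries. Cxcr6 was at 273 CPM in the adult injury library and 102 CPM in the adult control, Cd44 (an adhesion receptor raised on activation) at 988 and 299 CPM, and Pdcd1 at 157 and 16.98 CPM, a log2 ratio of 3.08 [1.92, 4.88].

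Cell division genes of the G2 and M phases were higher in 9 of 10, with a median of 3.00 (2.68 with genes at 0 UMIs set at their bound). The list holds 20 genes, and the 10 measured are those with at least 20 UMIs over both libraries. A gene near 0 in the adult control could pass this limit through the adult injury library alone, so the count is a description. Mki67 had 86 UMIs in 12 cells in the adult injury library and 6 UMIs in 1 cell in the adult control, with 46 UMIs in 11 cells and 19 UMIs in 6 cells in the neonate injury and control. At least 2 UMIs of these genes were present in 17 of 64, 5 of 38, 14 of 62 and 10 of 15 cells in the order adult injury, adult control, neonate injury and neonate control, and in 5, 0, 7 and 4 cells after thinning. The adult shares before thinning had overlapping intervals, 26.6% [16.3, 39.1] with injury and 13.2% [4.41, 28.1] in the control. Fibroblast-type barcodes held Mki67 in 21.7% in the adult injury library and 0.955% in the adult control, and the part of free RNA in the result was not tested. Of the other lists, receptor signalling had 1 higher of 14 genes, cytokine receptors 3 higher and 2 lower of 18, interferon response 3 higher of 8, chemokine receptors 3 higher and 3 lower of 10, and lymphocyte transcription factors 8 higher and 2 lower of 22. The CD4 and CD8 lineage list had 3 higher and 1 lower of 5, the checkpoint list 3 higher of 5 and the innate lymphoid type 2 list 3 higher of 5. Those 3 innate lymphoid genes (Il1rl1, Icos and Klrg1) are also in the regulatory T cell list.

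**Figure D4:**
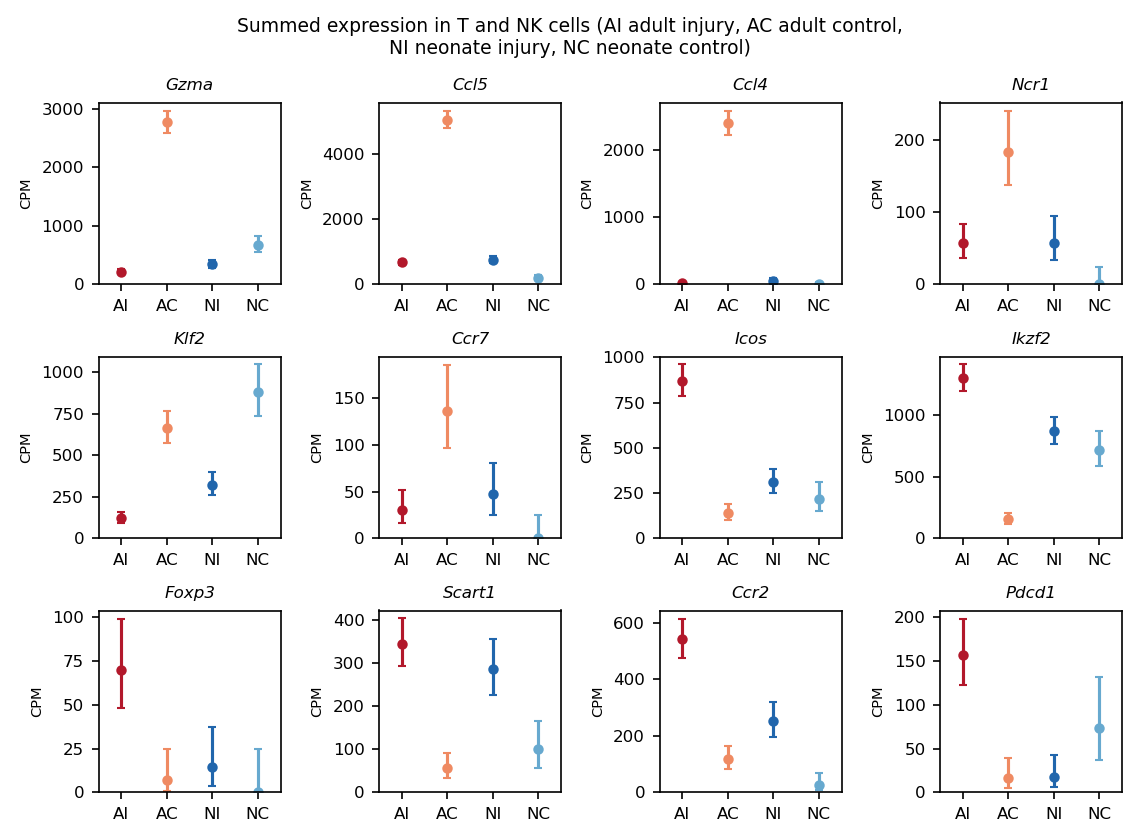
Summed expression (y axes, CPM, linear from 0) of selected genes in T and NK cells of the 4 libraries (x axes), with exact 95% Poisson intervals of the count. Gzma, Ccl5, Ccl4 and Ncr1 are highest in the adult control, Klf2 is lower in each injured library than in its control, and Icos, Foxp3 and Ccr2 are highest in the adult injury library.

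By the naming rule given with the methods, the highest adult ratios belonged to Itgb8, Dscam, Dgat1, Npnt, Plac8, Alcam, Lamc1, Blk, Mki67 and Pdcd1. Dgat1, which makes triglyceride, was the broadest of them, with 271 UMIs in 54 of 64 cells in the adult injury library against 12 UMIs in 10 of 38 cells in the adult control, a log2 ratio of 3.81 [3.03, 4.83]. Its level in all other barcodes was 25.2 CPM in the adult injury library and 11.03 CPM in the adult control. Itgb8, an integrin chain that activates TGF-beta, had 84 UMIs in 9 cells against 0 UMIs, at least 18.0-fold higher. Alcam and Lamc1 were also frequent in other cells, at 158 and 284 CPM in all other barcodes of the adult injury library. The lowest were Ccl4, Csf2, Dach2, Gzma, Iigp1, Ccl5, Cyp51, Fabp4, Immp2l and Klra9. Dach2 had 2 UMIs in 1 cell against 67 UMIs in 5 cells. Fabp4, a fatty acid carrier of fat and endothelial cells, was at 256 against 1688 CPM in T and NK cells and at 535 against 1417 CPM in all other barcodes. Its log2 ratio was -2.72, and 0.81 without cells of at least 10 collagen-list UMIs.

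Between neonate injury and neonate control (276611 and 149797 UMIs), 534 of 4041 genes were higher (13.2%) and 522 lower (12.9%), together 26.1%, with a median of -0.01. The neonate control holds 15 cells, of which 4 had many UMIs of another cell type, so single cells weigh heavily and values are set side by side. NK receptors and factors were higher in 7 of 11, with a median of 1.59, and 1 of the 7 was Klrb1c, a gene of the rule. Klrk1, the activating receptor NKG2D, had 120 UMIs in 31 cells with injury against 5 UMIs in 2 cells in the control, and Il2rb was at 734 against 187 CPM. Ccl5 was at 759 CPM in 31 cells against 207 CPM in 6 cells. Genes of type 2 innate lymphoid cells were lower in 7 of 10, with a median of -1.59. Without cells of at least 100 UMIs of another type they were lower in 5 of 10, with a median of -0.91, and with cells weighted equally in 4 of 10, with a median of -0.76. Mast and basophil markers were lower in 6 of 6 measured genes, and their part in the result was not tested. Il13, a type 2 cytokine, had 17 UMIs in 2 cells with injury against 35 UMIs in 3 cells in the control. Without the cells holding at least 100 UMIs of other types' markers, its log2 ratio was 0.15, against -1.91 with them. Il5, the eosinophil growth factor, had 6 UMIs in 3 cells against 56 UMIs in 3 cells, 40 of which came from 1 cell. Calca, which encodes the neuropeptide CGRP, had 1 UMI against 26 UMIs in 4 cells, and Il22 had 0 UMIs against 70 UMIs in 1 cell. Heat shock genes were lower in 5 of 7, with Hsp90aa1, a chaperone, at 163 against 567 CPM, and in fibroblast-type barcodes Hsp90aa1 was found in 57.2% against 94.7%.

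**Figure D5:**
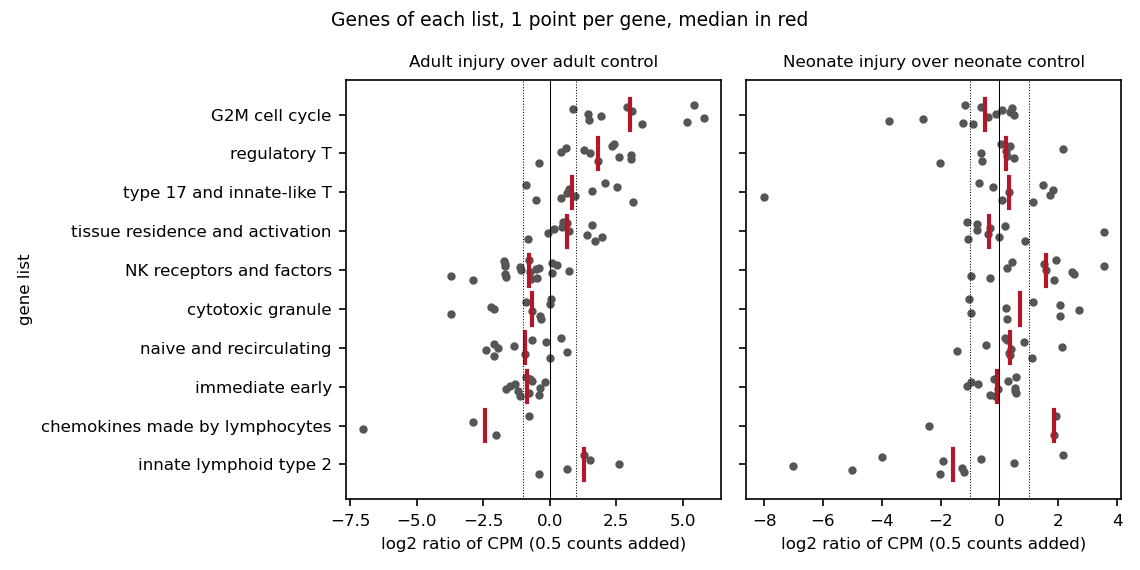
Log2 ratios of CPM (x axis, 0.5 counts added) of the measured genes of selected lists, 1 point per gene, with the list's median as a red bar and dotted lines at 2-fold; adult injury over adult control on the left, neonate injury over neonate control on the right. In adults the regulatory T median is 1.81 and the NK median -0.80, and in neonates the NK median is 1.59 and the innate lymphoid type 2 median -1.59.

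Between adult injury and neonate injury, 845 of 5973 genes were higher in adults (14.1%) and 372 lower (6.23%), together 20.4%, with a median of 0.25. With mitochondrial and ribosomal genes left out of the scale the counts were 649 higher and 471 lower, with a median of 0.13. Y-linked transcripts without Xist were seen in 0 adult injury cells and 12 neonate injury cells, and the part of sex was not tested. Itgae, the integrin chain CD103 of resident lymphocytes, had 52 UMIs in 17 cells in the adult injury library against 1 UMI in the neonate injury library, a log2 ratio of 4.40 [2.43, 10.3]. Zbtb16 was at 514 against 90.4 CPM and Pdcd1 at 157 against 18.1 CPM. Itgb8 had 84 UMIs in the adult injury library and 0 in the neonate injury library, at least 16.9-fold higher. The other highest were Klra8, Ttc39c, Alcam, Myb, Cep85l and Ly75. Among the lowest were H2ac24, Hmgn2, Cdca3, Snhg3, Ly6c2, Cenpx, Spry2 and H2aj. Ly6c2 encodes a surface protein of memory T and NK cells, although it is counted here in the naive and recirculating list. It was at 83.04 CPM in 5 cells in the adult injury library against 275 CPM in 18 cells in the neonate injury library. Hmgn2, a chromatin protein, was at 48.1 against 231 CPM, and in all other barcodes it was at 94.9 against 164 CPM. Fos and Jun were lower in adult injury, but with cells of at least 10 collagen-list UMIs left out the log2 Fos ratio was 0.04, and without cells of at least 100 UMIs of another type the log2 Jun ratio was 0.14.

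Between the controls, with 15 cells on the neonatal side, 674 of 4236 genes were higher in adults (15.9%) and 444 lower (10.5%), together 26.4%. Y-linked transcripts without Xist were seen in 0 adult control cells and 13 neonate control cells, so age and sex cannot be told apart here. NK receptors and factors were higher in 16 of 18, with a median of 3.25 (3.05 with genes at 0 UMIs set at their bound), and cytotoxic granule genes in 7 of 9. Klre1, a lectin-like NK receptor, had 99 UMIs in 18 cells in the adult control and 2 UMIs in 1 cell in the neonate control, and Nkg7 was at 920 against 194 CPM. Nkg7 and Klrb1c, both in these counts, are genes of the rule, so their levels depend partly on how the cells were chosen. Type 2 innate lymphoid genes were lower in 7 of 9, and Il13 had 0 UMIs in the adult control against 35 in the neonate control, at least 22.9-fold lower. Mast and basophil markers were also lower in 5 of 6 measured genes, and 1 neonate control cell had 981 UMIs of them. The Il13 ratio of neonate injury over control moved to 0.15 without cells of at least 100 UMIs of another type. The part of such cells in the values between controls was not tested. The adult and neonatal injury comparisons use their own controls, but each control also enters this comparison, so these values are not independent of them.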

How the data were processed

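Single-cell libraries were made from collagenase-digested Achilles tendons, per the labels' protocols. The deposited matrices hold UMI counts per gene and barcode, which the authors made with Cell Ranger (version 8.0.1, per the file headers) on GRCm39 per the submitters' processing notes. Quality limits on barcodes were 500 genes, 1000 UMIs and a mitochondrial part of no more than 15%, and T and NK cells were chosen by the marker rule given above. Members and gene lists were chosen with earlier results of these data known. Doublets were scored with Scrublet (scanpy 1.11.5) at 0.8% per 1000 barcodes and kept in the main values, since they were 2, 3, 7 and 2 of the cells in the order adult injury, adult control, neonate injury and neonate control. Counts were summed per library and given as CPM. Shares have exact Clopper-Pearson intervals, counts exact Poisson intervals, ratios of gene levels intervals from the exact binomial distribution, and ratios of shares intervals from a normal approximation of the log ratio, all at 95%. Because there was 1 library per group, no p-value was computed. The 10 highest and 10 lowest ratios were named where both libraries held at least 20 cells, among genes with at least 100 CPM and 10% of cells in the higher library. Mitochondrial, ribosomal, predicted, hemoglobin, Xist and Y-linked genes, and genes higher in all other barcodes, were left out. Some genes that this rule names are not reported here. The ratio steps were tested on simulated data.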

Additional observations from a re-analysis of the deposited data

Results flagged for a closer look

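The share of T and NK cells among Ptprc-positive barcodes differed in direction between ages: the injury over control ratio was 0.308 in adults and 2.04 in neonates. The difference was not tested, and with 1 library per group it could not be.

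Among all measured list genes other than markers of other cell types, 6 went past 2-fold in opposite directions, again untested. Of all genes tested, 21.6% in adults and 26.1% in neonates were past 2-fold either way, so opposite calls can arise in any set of genes. The share of all genes in opposite directions is not given here, so the 6 have no background to be read against. Ccl5 had a log2 ratio of -2.90 in adult injury over control and 1.86 in neonatal injury over control, Klrb1c of -1.09 and 2.54, Ly6c2 of -1.33 and 2.12, Ifng (interferon gamma) of -2.82 and 1.52, Hsph1 (a heat shock protein) of 2.28 and -1.79, and Ube2c, a G2 and M phase gene, of 5.43 and -1.17. The Ube2c value in adults is against 0 UMIs in the control and depends on the counts added. The median of the innate lymphoid type 2 list was 1.29 in adults and -1.59 in neonates, with different genes measured. The neonatal median was -0.91 without cells of at least 100 UMIs of another type and -0.76 with cells weighted equally, and mast and basophil markers were also lower in neonate injury. The median of chemokines made by lymphocytes was -2.45 and 1.86. Without cells of at least 100 UMIs of another type, the adult Klrb1c ratio was -0.99. In the neonate control Klrb1c rests on 3 UMIs in 1 cell, and as a gene of the rule its level depends partly on how the cells were chosen. No group had the 4 samples needed to look for an outlying library.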

How the results depend on the processing

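No paired analysis was possible because each group holds 1 library and no result comes from a test. Leaving out each replicate is not possible with 1 library per group. Thinning to 1000 UMIs gave shares of 0.195% and 0.344% in adult injury and control and 0.101% and 0.00959% in neonate injury and control, so that the ratio of injury over control was 0.566 in adults, the reverse of the main value, and 10.5 in neonates. The ratio of 10.5 rests on very few neonate control barcodes, and the thinned shares carry no interval. Thinning also gave alpha-beta shares of 10.9%, 10.5% and 0% in adult injury, adult control and neonate control (0% in the last with at least 2 receptor UMIs too), a gamma-delta share of 9.68% and an NK type share of 22.6% in neonate injury. Thinning by construction leaves fewer marker UMIs, and cells that lose their CD3 and Trac UMIs can enter the NK type. Without cells of at least 10 collagen-list UMIs, the adult injury share was 0.584% and the adult ratio 1.05. With at least 5 marker UMIs the neonate injury share was 0.316%.

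The number of genes past 2-fold moved with the minimum count, which sets how many genes are tested. At 10 and 50 UMIs it was 2228 and 562 for adult injury over control, 1961 and 324 for neonate injury over control, 2039 and 524 for adult over neonate injury, and 1969 and 407 for adult over neonate control. It was 752 for adult over neonate injury without cells of at least 10 collagen-list UMIs. Of 1618 values of single genes under the alternatives, 6 changed sign among genes past 2-fold in the main values, and 13 among genes below it. Without a change of sign, 35 values of genes past 2-fold fell below it. For genes below 2-fold, 33 values went past it. Without collagen-list cells, Fabp4 in adult injury over control was 0.81 and Fos in adult over neonate injury 0.035. Without cells of at least 100 or at least 50 UMIs of another type, Il13 in neonate injury over control was 0.15 in both cases and Jun in adult over neonate injury was 0.14 and 0.033. These 2 cutoffs were chosen after seeing the data, and at 50 UMIs the ratio of shares was 2.14 in adults and 3.57 in neonates. The cause of these moves was not tested. Weighting cells equally, 14 of 19 NK genes were lower in adult injury, against 9, beside 522 of all 6097 genes. Without cells of at least 100 UMIs of another type 8 of the 19 were lower, and with doublets removed 9. Regulatory T cell genes were higher in 7 of 11 with equal weights, against 8. Counts of a few UMIs in 15 cells limit what the neonate control can show.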
